A study of Mus musculus with 6 samples.

Results

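The genes of 3 epithelial polarity complexes were followed in mouse tumors formed by 4T1 cells, which are a line from a mammary carcinoma. The 10 genes were chosen by name as subunits of the Crumbs complex (Crb3), the Par complex (Pard3, Pard6a, Pard6b and the atypical protein kinases C Prkci and Prkcz) and the Scribble module (Scrib, Dlg1, Llgl1 and Llgl2). All 10 were found by symbol among 54146 gene rows and all 10 passed the low-count filter, in wild-type and in knockout libraries alike, as did 19900 genes in all. The wild-type group holds 3 libraries from tumors of unmodified 4T1 cells, and the knockout group holds 3 libraries from tumors of 4T1 cells knocked out for Mki67 (Mki67-/-, labelled Ki-67-KO), which encodes Ki-67, a protein used as a marker of proliferation. Both kinds of cells grew for 3 weeks as orthotopic tumors, in the fat pad of the mammary gland, in nude mice, whose lack of a thymus leaves them without most T cells. The age of the mice is not given in the sources used here, nor is the number of knockout clones, so a difference between clones and an effect of the knockout cannot be told apart. RNA came from whole tumor pieces, so host cells are part of each library.

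Epithelial cells have a top and a bottom, and these complexes mark them out. Crumbs proteins and the Par complex, in which the scaffolds Par-3 and Par-6 hold an atypical protein kinase C, act at the apical side and the tight junction, while Scribble, Discs large and Lethal giant larvae proteins act along the basolateral side. The kinase and the Lethal giant larvae proteins exclude each other from their domains. In carcinoma cells, loss of apical polarity is a known part of epithelial-mesenchymal transition, and transcription factors of the Zeb and Snail families are known to repress Crb3 in cultured cells.

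The libraries held 22081970 to 38399826 read pairs in genes, fewer in each knockout library than in each wild-type one. Knockout replicates 2 and 3 had 54.6% and 52.7% unmapped pairs against 30.8% to 33.9% in the other 4 libraries. Levels are given as CPM, the usual count scaled by library total and TMM factor, which sets libraries of unequal size and makeup on a common scale. Mki67 stood at 360, 395 and 325 CPM in the wild-type replicates 1, 2 and 3 and, in knockout replicates 1, 2 and 3, at 98.7, 117 and 139 CPM, in the direction of the labels. The epithelial markers that define a carcinoma were present in all 6 libraries: the 9 summed to 2920 to 3022 CPM in the wild-type libraries and reached 6012 to 6434 CPM in the knockout, and 8 of them were higher in the knockout. Of all genes tested, 36.0% passed the edgeR threshold of 0.05 on the adjusted p, 17.6% higher and 18.4% lower in knockout tumors. Without wild-type replicates 1, 2 and 3 in turn, 1821, 1981 and 1855 genes were higher in place of 3506, and without wild-type replicates 1 and 2, 2257 and 2434 were lower in place of 3652. The labels do not say whether the tumors of a group came from separate mice, so p-values measure only the spread between these libraries.

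Of the 10 polarity genes, 5 rose in the knockout tumors (Crb3, Pard6b, Llgl2, Prkcz and Pard3) and 0 fell in edgeR, against a background of 17.6% higher and 18.4% lower. At an unadjusted p under 0.05 the numbers were 6 and 0, beside 23.5% of all genes tested higher and 23.1% lower. In DESeq2 they were 6 and 0 past the adjusted threshold, beside 18.8% and 19.8% of all genes. The median log2 fold change of the 10 was 0.34, and that of all genes tested was 0.05. Crb3, Pard6b, Prkcz and Llgl2 had the 4 lowest wild-type levels per kilobase of exon. The 4 highest, Llgl1, Scrib and Dlg1 of the Scribble module and Prkci of the Par complex, did not pass the test, nor did Pard6a. For 6 of the 10 genes the 2 groups did not overlap, 6 with the knockout above and 0 below, where 50.5% of all genes tested had groups without overlap, 24.5% with the knockout above and 26.0% below. In bulk tumors, more cells that carry a transcript and more transcript per cell cannot be told apart. Lists of markers moved with these genes. Of the 9 epithelial markers, 8 rose, among them Epcam 7.70-fold and Cdh1 4.05-fold. Krt8 did not pass the test (log2 fold change 0.18, edgeR adjusted p = 0.223). The 6 keratinocyte markers were counted in every library, and all passed the test as higher in the knockout. They summed to 72.2 to 126 CPM in wild-type and to 953, 1596 and 718 CPM in knockout replicates 1, 2 and 3. Most of each knockout sum was Krt14, at 815, 1009 and 630 CPM in the same replicates. All 6 were highest in knockout replicate 2, among them Lor, at 24.6, 96.9 and 9.42 CPM in knockout replicates 1, 2 and 3. The 2 groups overlapped for Krt10. The part of the epithelial and keratinocyte markers in the rises below was not tested. Macrophage markers fell for 6 of 6, from a sum of 4450 to 5312 CPM in wild-type to one of 699 to 748 CPM in knockout tumors, and their part was not tested.

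**Figure D1:**
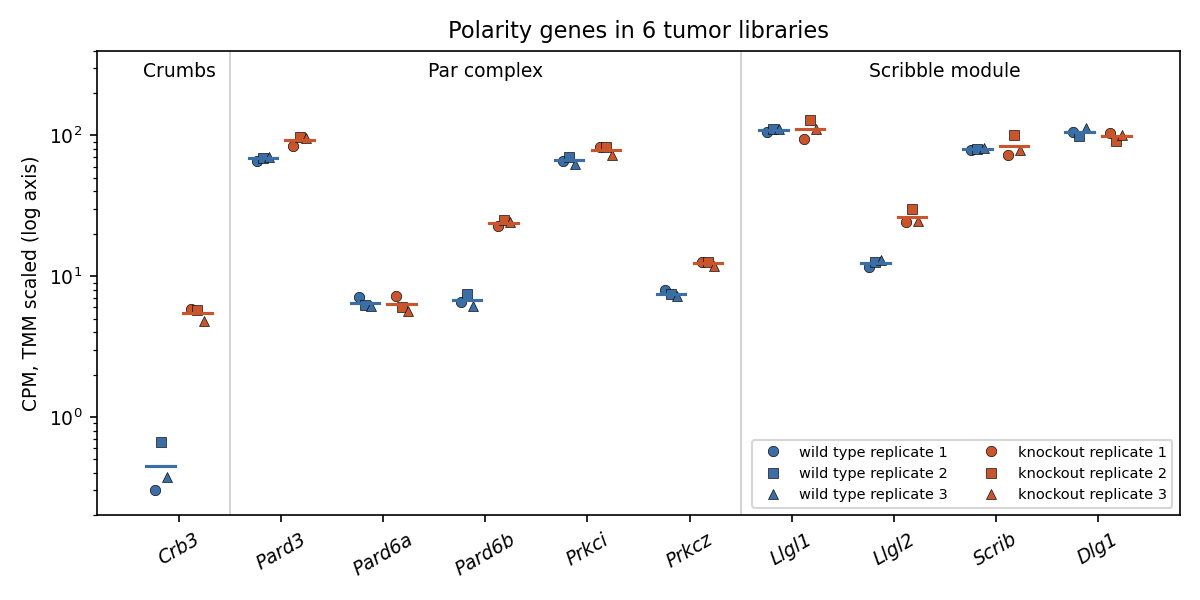
Level of each polarity gene in each library, as TMM-scaled CPM on a log axis, with wild-type libraries in blue, knockout libraries in orange, symbols for replicates and bars for group means. Crb3 sits below 1 CPM in the 3 wild-type libraries and near 5 CPM in the knockout ones, while the points of Llgl1, Scrib, Dlg1 and Pard6a overlap between groups.

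Crb3 encodes the short Crumbs protein of epithelia, a transmembrane protein that recruits the apical scaffold Pals1. It was counted 11, 25 and 14 times in wild-type replicates 1, 2 and 3 and 181, 146 and 111 times in knockout replicates 1, 2 and 3. As CPM, the wild-type values were 0.304, 0.662 and 0.374, and the knockout values were 5.89, 5.77 and 4.78. The lowest knockout library lay well above the highest wild-type library. The log2 fold change was 3.60 (SE 0.30, edgeR adjusted p = 5.52e-05), a 12.1-fold rise, and it ranged from 3.37 to 3.97 over the alternative settings. Crb3 (ENSMUSG00000044279) lies on GRCm38 chromosome 17, 57059105 to 57065918, plus strand.

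The promoter of Crb3 is shown because its letters hold several copies of an E-box that Zeb and Snail factors are known to bind. The element reads CAGGTG on one strand and, read along the opposite strand, CACCTG. The RefSeq window for a start at 57062201 (GRCm38.p6, plus strand) is given as the 250 bases before that start, chr17:57061951-57062200, with each E-box in capitals.
Crb3 promoter: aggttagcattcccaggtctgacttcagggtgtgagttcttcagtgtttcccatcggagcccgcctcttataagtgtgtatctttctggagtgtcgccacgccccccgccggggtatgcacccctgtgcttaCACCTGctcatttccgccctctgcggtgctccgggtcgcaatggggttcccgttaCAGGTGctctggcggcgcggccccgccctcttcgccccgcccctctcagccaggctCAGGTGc
The 3 E-boxes in these bases begin 118, 63 and 7 bases before the start, and 1 more begins 25 bases after it. Both strands were searched in windows of 300 bases, from 250 before to 50 after a start. Of 32851 such windows, 20.2% held at least 1 copy, 2.88% at least 2 and 0.0548%, or 18 windows, at least 4. Crb3 has 2 overlapping windows in the table and both hold the same 4 copies, so Crb3 supplies 2 of the 18 windows. The shares were not matched for base composition. A match of letters is a description and does not show that a factor is bound.

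Pard6b encodes one of the Par-6 adaptors that join the small GTPase Cdc42 to atypical protein kinase C. Its level was 6.54, 7.49 and 6.15 CPM in wild-type replicates 1, 2 and 3 and 22.7, 25.2 and 24.3 CPM in knockout replicates 1, 2 and 3. The 3 knockout libraries were close to each other and far above the wild-type ones. The rise was 3.57-fold, or 1.84 on the log2 scale (SE 0.12, edgeR adjusted p = 2.02e-05), the smallest p among the 10 genes. Its position is chromosome 2, 168081004 to 168101203, plus strand. The promoter is shown for comparison with that of Crb3, as chr2:168080754-168081003 (GRCm38.p6, plus strand) with E-boxes in capitals.
Pard6b promoter: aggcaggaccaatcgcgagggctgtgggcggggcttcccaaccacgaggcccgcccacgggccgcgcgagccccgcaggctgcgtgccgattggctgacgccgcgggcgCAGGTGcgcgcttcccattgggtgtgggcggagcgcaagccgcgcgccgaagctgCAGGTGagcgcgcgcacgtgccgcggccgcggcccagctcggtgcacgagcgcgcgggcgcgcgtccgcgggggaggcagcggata
It holds 2 copies, which begin 141 and 86 bases before the start, and 77.0% of the 300 bases of its window are G or C, against a median of 52.7% over all windows.

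Pard6a, the paralog of Pard6b, stood at 7.10, 6.28 and 6.09 CPM in the wild-type replicates 1, 2 and 3 and, in knockout replicates 1, 2 and 3, at 7.25, 6.08 and 5.64 CPM. The groups overlapped, and the log2 fold change was -0.03 (SE 0.16, edgeR adjusted p = 0.879). Within each library, counts of Pard6b made up 48.0%, 54.4% and 50.2% of the counts of both genes in wild-type and 75.8%, 80.5% and 81.1% in knockout replicates 1, 2 and 3. A ratio within a library does not depend on how libraries are scaled. The log2 ratio of Pard6b to Pard6a rose from 0.05 ± 0.19 to 1.93 ± 0.25 (SD, n = 3 each), a difference of 1.88. The exact two-sided permutation test gave p = 0.1, and 0.1 after adjustment over the 3 paralog ratios computed, which is the smallest value that 3 against 3 allows. The third gene of the family, Pard6g, is described with the Par partners below, and per kilobase of exon the 3 genes together went from 6.57 ± 0.39 CPM to 12.4 ± 0.66 CPM in the knockout (SD, n = 3 each).

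Llgl2 encodes the Lethal giant larvae protein found mainly in epithelia. It stood at 11.7, 12.5 and 13.0 CPM in the wild-type replicates 1, 2 and 3 and, in knockout replicates 1, 2 and 3, at 24.1, 30.1 and 24.7 CPM. The groups were apart and the rise was 2.12-fold (log2 fold change 1.08, SE 0.12, edgeR adjusted p = 0.000311). Llgl1, its broadly expressed paralog, stood at 106, 110 and 111 CPM in the wild-type replicates 1, 2 and 3 and, in knockout replicates 1, 2 and 3, at 94.0, 128 and 110 CPM, so knockout libraries lay on both sides of the wild-type ones. Its log2 fold change was 0.02 (SE 0.12, adjusted p = 0.902). With knockout replicate 1 as the only knockout library, which assumes that it varies like the others, Llgl1 was called lower, with a value of -0.28 (adjusted p = 0.0197). The log2 ratio of Llgl2 to Llgl1 went from -3.14 ± 0.05 to -2.07 ± 0.10 (SD, n = 3 each), a difference of 1.07 (exact permutation p = 0.1, adjusted p = 0.1). Llgl2 counts were thus 9.88% to 10.5% of the pair in wild-type and 18.3% to 20.4% in knockout libraries, and Llgl1 stayed the more abundant of the pair. The genes lie far apart on chromosome 11, Llgl1 at 60699723 to 60714186 and Llgl2 at 115824049 to 115855780, both on the plus strand.

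Prkcz and Prkci encode the zeta and the iota form of atypical protein kinase C, the enzyme of the Par complex. Prkcz stood at 7.92, 7.42 and 7.22 CPM in the wild-type replicates 1, 2 and 3 and, in knockout replicates 1, 2 and 3, at 12.6, 12.6 and 11.9 CPM. The spread within each group was small beside the gap, and the rise was 1.64-fold (log2 fold change 0.72, SE 0.12, edgeR adjusted p = 0.00238). Prkci stood at 66.1, 70.4 and 63.1 CPM in the wild-type replicates 1, 2 and 3 and, in knockout replicates 1, 2 and 3, at 82.1, 83.2 and 72.2 CPM. Its groups did not overlap, but the gap between the nearest libraries was small, and the gene did not pass (log2 fold change 0.25, SE 0.09, adjusted p = 0.0629). It did pass, as higher, under 6 of the alternative settings, with adjusted p from 0.019 to 0.0395, DESeq2 among them. The log2 ratio of Prkcz to Prkci went from -3.14 ± 0.09 to -2.68 ± 0.06 (SD, n = 3 each), a difference of 0.47 (exact permutation p = 0.1, adjusted p = 0.1). Prkcz supplied 9.55% to 10.7% of the pair's counts in wild-type and 13.2% to 14.1% in knockout libraries. An internal start of Prkcz is known to give a kinase fragment, and gene counts cannot separate it from the full form.

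Of the 3 RefSeq windows for Prkcz (chromosome 4, 155260129 to 155361361, minus strand), the one farthest upstream is shown because it too holds more than 1 E-box. It is given as chr4:155361429-155361678 (GRCm38.p6), read along the minus strand, with E-boxes in capitals.
Prkcz promoter: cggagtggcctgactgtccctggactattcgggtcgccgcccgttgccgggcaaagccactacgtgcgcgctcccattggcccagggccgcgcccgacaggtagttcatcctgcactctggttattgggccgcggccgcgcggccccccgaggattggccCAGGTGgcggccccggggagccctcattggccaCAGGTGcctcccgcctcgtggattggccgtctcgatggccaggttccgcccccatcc
The copies begin 90 and 57 bases before the start. In all, 8 of the 10 genes, all but Scrib and Llgl2, which rose, matched this RefSeq table, with 16 windows. Of these windows 8 held at least 1 copy, in 6 genes, beside 20.2% of all windows, a share not matched for base composition. The 8 include 2 overlapping windows of Crb3 that hold the same copies. Genes differ in their number of windows, and no share per gene was computed. These 6 were Crb3, Pard6b, Prkcz and Pard3, which rose, and Dlg1 and Pard6a, which did not pass the test. The 3 copies of Pard3 lie only in the window for a start at 127299612, which is not shown. Its window for a start at 127064056 held none. The windows of Llgl1 and Prkci held none, which says only that these letters are not in those windows.

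**Figure D2:**
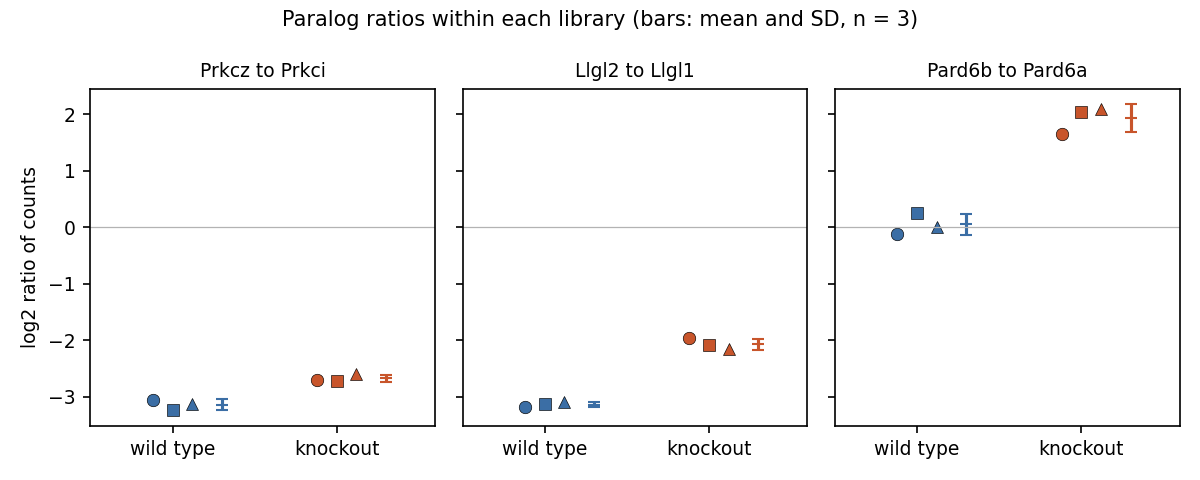
Log2 ratio of the counts of 2 paralogs in each library, for Prkcz to Prkci, Llgl2 to Llgl1 and Pard6b to Pard6a, with the mean and SD (n = 3) beside the points. Knockout libraries lie above wild-type libraries in each panel, and the difference is largest for Pard6b to Pard6a, at 1.88, and smallest for Prkcz to Prkci, at 0.47.

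Pard3 encodes the scaffold Par-3, which gathers the Par complex at forming tight junctions. It stood at 66.3, 69.3 and 70.7 CPM in the wild-type replicates 1, 2 and 3 and, in knockout replicates 1, 2 and 3, at 84.4, 97.8 and 95.3 CPM. The groups were apart, and the rise was 1.34-fold (log2 fold change 0.43, SE 0.09, edgeR adjusted p = 0.00686). It missed the threshold when replicate 1 (0.38, adjusted p = 0.0763) or replicate 2 (0.41, adjusted p = 0.0562) of the wild type was left out, and when low counts were not filtered (0.35, adjusted p = 0.0738). Pard3 lies on chromosome 8, 127063893 to 127612286, plus strand, and that chromosome as a whole was higher in the knockout tumors. Over its 1038 genes tested the median log2 fold change was 0.44, with 43.3% called higher and 5.39% lower. In knockout replicates 1, 2 and 3 the median of chromosome 8 genes stood 0.41, 0.40 and 0.41 above the wild-type mean on the log2 scale, nearly the same in each. With that median removed, an alternative chosen after seeing the data, Pard3 had a log2 fold change of -0.009 (adjusted p = 0.947), so its rise was no larger than that of its chromosome.

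Pard6a also lies on chromosome 8, at 105701148 to 105703496 on the plus strand. Its log2 fold change, -0.03, lay below the first quartile of its chromosome, 0.17. With the same median removed it was -0.47 (SE 0.16, edgeR adjusted p = 0.0461). That fit treats the median as known without error and was run under the main setting only. With the unmapped share as a covariate, Pard6a was at 0.12 and the chromosome median at 0.42. The medians of the other 7 chromosomes that hold polarity genes ran from -0.08 on chromosome 3 to 0.12 on chromosome 16. The log2 fold changes of Crb3, Pard6b, Llgl2 and Prkcz lay above the third quartile of all genes tested on their chromosomes, which was 0.47, 0.48, 0.45 and 0.46 on chromosomes 17, 2, 11 and 4.

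**Figure D3:**
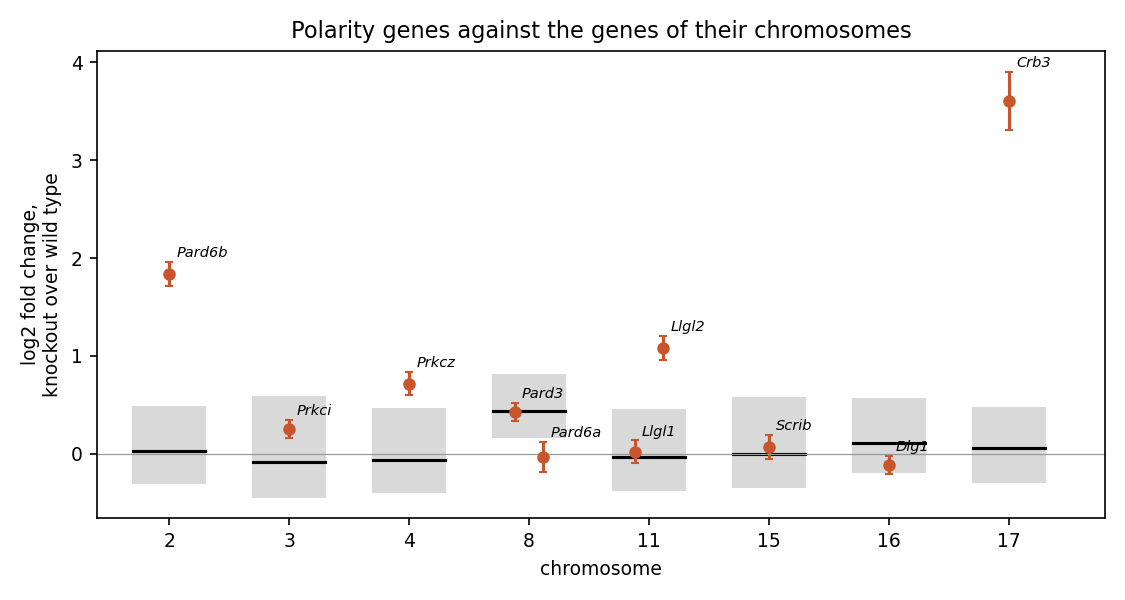
Log2 fold change of each polarity gene (points, bars are SE) over the genes of its chromosome (grey box from the first to the third quartile, black line at the median). Chromosome 8 is the one with a shifted box, median 0.44; Pard3 sits on that median and Pard6a, at -0.03, sits below the box.

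Scrib and Dlg1 encode the large scaffolds of the basolateral module, built of leucine-rich repeats and PDZ domains or of PDZ, SH3 and guanylate kinase-like domains. Scrib stood at 78.4, 80.7 and 81.5 CPM in the wild-type replicates 1, 2 and 3 and, in knockout replicates 1, 2 and 3, at 73.0, 101 and 79.4 CPM. Replicate 2 was the highest of the 6 libraries and replicate 1 the lowest, and the log2 fold change was 0.07 (SE 0.12, edgeR adjusted p = 0.660). Dlg1 stood at 106, 99.4 and 114 CPM in the wild-type replicates 1, 2 and 3 and, in knockout replicates 1, 2 and 3, at 103, 91.3 and 100 CPM. The groups overlapped, and the log2 fold change was -0.11 (SE 0.09, adjusted p = 0.355). Scrib lies on chromosome 15, 76047158 to 76069784, minus strand, Dlg1 on chromosome 16, 31663443 to 31875129, plus strand, and Prkci on chromosome 3, 30995747 to 31052959, plus strand. Exons of other genes covered 1.3% of the exonic bases of Llgl1, where Flii runs on the opposite strand, and 0.9% of those of Crb3, where Dennd1c does, and 0 of the other 8 genes had such overlap.

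Levels can be compared between genes as CPM per kilobase of exon. In wild-type tumors the order was Llgl1 (22.5 ± 0.53), Scrib (12.4 ± 0.25), Prkci (11.99 ± 0.66), Dlg1 (9.92 ± 0.66), Pard3 (4.74 ± 0.16), Pard6a (4.10 ± 0.34), Llgl2 (2.56 ± 0.14), Pard6b (1.98 ± 0.20), Prkcz (1.19 ± 0.06) and Crb3 (0.286 ± 0.12), each CPM per kilobase with its SD, n = 3. The libraries of Scrib and Prkci overlapped, and the libraries of the other neighbours in that order did not. In knockout tumors Llgl1 was again highest, at 22.8 ± 3.53 CPM per kilobase, followed by Prkci at 14.3 ± 1.09, Scrib at 13.1 ± 2.24 and Dlg1 at 9.16 ± 0.59. Pard6b moved from the eighth place to the fifth, at 7.08 ± 0.37 CPM per kilobase, ahead of Pard3 at 6.38 ± 0.49 and Llgl2 at 5.43 ± 0.68. Pard6a followed at 4.00 ± 0.53, Crb3 at 3.50 ± 0.39 and Prkcz at 1.96 ± 0.07. In the knockout order the libraries of Prkci and Scrib overlapped, as did those of Pard6b and Pard3, of Pard3 and Llgl2, and of Pard6a and Crb3. The 3 Crumbs genes together went from 0.322 ± 0.13 to 3.56 ± 0.37 CPM per kilobase (SD, n = 3 each), nearly all of it Crb3.

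Related genes moved both ways. The 36 are partners, paralogs and regulators of the complexes and 5 transcription factors that repress epithelial genes. Of these, 34 were tested, 11 rose and 8 fell (edgeR adjusted p under 0.05), with a median log2 fold change of 0.27 against 0.05 over all genes. The share of all genes tested was 17.6% higher and 18.4% lower, which is also the background of each smaller list that follows, and the 8 that fell are near it. Leaving out replicate 1 or 2 of the wild type, or replicate 3 of the knockout, brought the number that fell to 5. In the same 3 fits, 2257 of 21144, 2434 of 21066 and 2517 of 20662 genes tested were lower, in place of 3652 of 19900, so calls were lost over all genes too. Among the partners of Crumbs, 1 of 5 tested genes rose and 0 fell. It was Patj, a PDZ scaffold that binds Pals1 and tight junction proteins, at 38.6, 43.7 and 41.1 CPM in wild-type and at 51.6, 60.4 and 54.9 CPM in knockout replicates 1, 2 and 3, and it rose by 0.44 on the log2 scale (SE 0.10, adjusted p = 0.00897). It no longer passed when replicate 1 (adjusted p = 0.0961) or 3 (adjusted p = 0.0592) of the wild type was left out. Mpp5, which encodes Pals1 itself and is named here after its values were seen, was at 49.4, 46.8 and 48.1 CPM in wild-type replicates and, in knockout replicates 1, 2 and 3, at 44.6, 30.1 and 35.9 CPM. It did not pass (log2 fold change -0.38, SE 0.14, adjusted p = 0.0582) and was called lower under 5 of 19 alternatives, among them leaving out knockout replicate 1 (-0.55, adjusted p = 0.00246), no filter on low counts (adjusted p = 0.0104), removal of the GC trend (adjusted p = 0.0374) and DESeq2 (adjusted p = 0.0392). At an unadjusted p under 0.05, Mpp5 was the only 1 of the 5 on the lower side. Crb2 and Lin7b were below the filter.

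Among 11 genes around the Par complex, 4 rose and 2 fell. Wwc1, which encodes Kibra, a partner of atypical protein kinase C and of the Hippo pathway, stood at 22.1, 23.3 and 19.9 CPM in the wild-type replicates 1, 2 and 3 and, in knockout replicates 1, 2 and 3, at 67.7, 79.5 and 65.9 CPM, a 3.26-fold rise (log2 fold change 1.71, SE 0.11, edgeR adjusted p = 1.67e-05). Pard6g rose 2.63-fold from a low level (1.46, 1.67 and 1.47 CPM in wild-type libraries against 2.90, 5.77 and 3.49 CPM in knockout replicates 1, 2 and 3) and the polarity kinase gene Mark1 rose 2.31-fold (adjusted p = 0.00586 and 0.00499). Pard3b, a paralog of Pard3 named after its values were seen, rose by 0.93 on the log2 scale (adjusted p = 0.0352), a call lost without any 1 of the wild-type replicates or knockout replicate 3 (adjusted p 0.071 to 0.137). The genes that fell were Stk11, which encodes the Par-4 kinase Lkb1, with a log2 fold change of -0.36 (adjusted p = 0.0155), and Tiam1, a Rac exchange factor that binds Par-3, with -0.61 (adjusted p = 0.0217), the latter named after its values were seen. Neither gene passed when replicate 1 or 2 of the wild type, or replicate 3 of the knockout, was left out (adjusted p from 0.0531 to 0.0789).

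The relatives of Scrib and Dlg1 split within their families. Of 7 genes, 2 rose and 3 fell. Dlg5 rose 2.08-fold (log2 fold change 1.06, SE 0.16, edgeR adjusted p = 0.0014), from 72.5, 86.4 and 80.5 CPM in wild-type libraries to 130, 206 and 163 CPM in knockout replicates 1, 2 and 3, while Dlg4 was 2.01-fold lower (adjusted p = 0.00229). Dlg3, named after its values were seen, had a log2 fold change of -0.26 (adjusted p = 0.0434), a call lost under 12 of 19 alternatives, which include leaving out any 1 wild-type replicate or knockout replicate 3 (adjusted p 0.0893 to 0.136). Among the relatives of Scrib, Lrrc1 rose by 0.51 on the log2 scale (adjusted p = 0.00867) and Erbin fell by 0.51 (adjusted p = 0.0205). When wild-type libraries were left out, Lrrc1 did not pass without replicate 1 (adjusted p = 0.0822) or 3 (adjusted p = 0.0653), nor Erbin without replicate 3 (adjusted p = 0.0659). Whether any of these paralogs differ from Scrib or Dlg1 in their change was not tested.

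Of 6 further regulators, 3 rose and 1 fell. Epb41l5, a FERM-domain protein that binds Crumbs, rose 2.14-fold, from 7.68, 8.77 and 8.47 CPM in wild-type to 18.9, 16.5 and 17.98 CPM in knockout replicates 1, 2 and 3 (edgeR adjusted p = 0.000261). The angiomotin genes, whose proteins bind Patj and Yap, went in different directions: Amotl2 rose 1.91-fold and Amotl1 1.40-fold (adjusted p = 0.00145 and 0.00437), and Amot was 1.44-fold lower (adjusted p = 0.00396). Of 5 transcription factors known to repress epithelial genes, 2 fell and 1 rose. Zeb2 went from 102, 100.3 and 102 CPM in wild-type to 34.2, 34.9 and 35.5 CPM in knockout replicates 1, 2 and 3, 2.91-fold lower (adjusted p = 5.17e-06), and Twist1 was 3.17-fold lower (adjusted p = 7.16e-06). Snai2 rose 2.48-fold (adjusted p = 0.00352). Zeb1, named after its values were seen, was at 10.4, 10.6 and 11.9 CPM in wild-type and at 12.6, 17.2 and 13.5 CPM in knockout replicates 1, 2 and 3, and did not pass (log2 fold change 0.39, SE 0.15, adjusted p = 0.0701). It was called higher under 6 of 19 alternatives, among them leaving out knockout replicate 1 (0.47, adjusted p = 0.0307). Without knockout replicate 2 its log2 fold change was 0.20 (adjusted p = 0.231). Over the 19 alternatives it ranged from 0.131 to 0.555. The part of these factors in the polarity genes was not tested. Host cells are part of each library, so the cells in which these factors changed cannot be told apart. Macrophage markers fell too, for 6 of 6, and their part in the falls of Zeb2 and Twist1 was not tested.

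**Figure D4:**
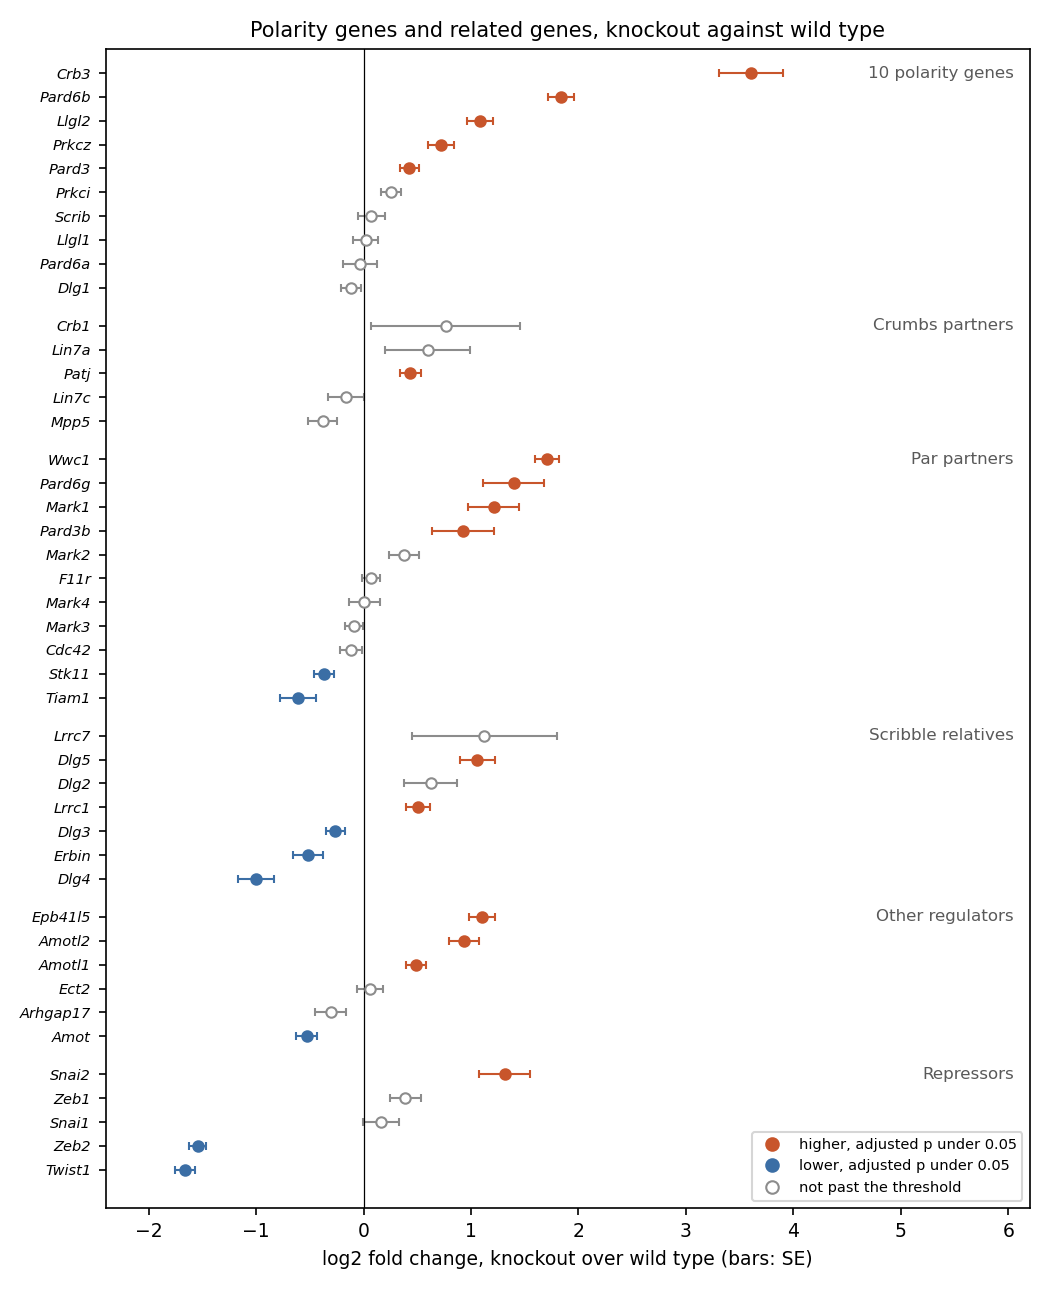
Log2 fold change of the 10 polarity genes and of 34 related genes tested, by group, with SE as bars; filled orange points passed the edgeR threshold as higher, filled blue points as lower, and open points did not pass. Crb3 is farthest to the right at 3.60, and Zeb2 and Twist1 are farthest to the left at -1.54 and -1.66.

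The genes most like Pard6b, the polarity gene with the smallest p, were sought among 11611 other genes with a mean of at least 5 CPM, by the root mean square difference of log2 CPM over the 6 libraries, each gene centred on its own mean. The 3 nearest were Wwc1 at 0.097, St14, a membrane serine protease gene of epithelia, at 0.108, and Epb41l4b, a FERM-domain gene, at 0.115. St14 stood at 89.1, 93.2 and 95.9 CPM in the wild-type replicates 1, 2 and 3 and, in knockout replicates 1, 2 and 3, at 286, 329 and 310 CPM. Epb41l4b stood at 6.54, 8.29 and 7.51 CPM in the wild-type replicates 1, 2 and 3 and, in knockout replicates 1, 2 and 3, at 22.3, 25.9 and 23.6 CPM. These are likenesses of level over 2 groups of 3 libraries and no test was made of them.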

How the data were processed

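Paired-end RNA sequencing of whole tumors gave 2 groups of 3 libraries, taken from the sample titles. The deposited values are raw counts, 1 for each read pair assigned to a gene, in the layout of STAR gene counts, with 1 unstranded and 2 stranded columns. STAR 2.6.0c, FastQC, DESeq2 and the GRCm38 build are named, without roles, in the submitters' processing notes. Pairs that map to several places or to more than 1 gene are not counted in that layout. The first 4 rows name no gene and stayed out of totals. They held unmapped pairs (30.8% to 54.6% of all pairs) and pairs outside exons (9.24% to 18.9% of uniquely mapped pairs), among others.

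The first stranded column held 50.1% to 50.2% of stranded counts, so the unstranded column was used, and antisense reads cannot be separated. Of 54146 identifiers, 54079 were matched to GENCODE M21 (GRCm38) for symbols, positions and exon lengths. The test was the quasi-likelihood F test of edgeR 4.0.16 under R 4.3.3 (filterByExpr, TMM, glmQLFit), Benjamini-Hochberg over 19900 genes, threshold 0.05. CPM values use TMM factors. SE is the absolute log2 fold change over the square root of F. A count of 0 allows up to 3 counts, 0.0794 to 0.129 CPM by library, for counting error only. Paralog ratios (0.5 added to counts) were tested with SciPy 1.17.1. Alternatives included DESeq2 1.42.0, other scalings and filters, and each library left out. Fitting was tested on simulated data, where 67 of 106 changes of 2-fold and 73 of 88 of 4-fold were recovered. Of 157 calls made there, 17 were false. Promoter windows are RefSeq's (GRCm38.p6).

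The 10 genes and the other lists were chosen with earlier results of these data known. Named are all 10, up to 4 called genes of each related list by smallest p, Mki67, Epcam, Cdh1, and the 3 genes nearest in profile to the called gene with the smallest p. Pard3b, Tiam1, Dlg3, Mpp5, Zeb1 and the genes named for exon overlap lie outside this rule. Outside the epithelial, keratinocyte and macrophage lists, fibroblast markers were higher for 5 of 6 and lower for 1, and adipocyte markers higher for 5 of 5. Endothelial markers were higher for 1 of 5, skeletal muscle markers for 4 of 5 and nerve markers for 1 of 4. Natural killer markers were lower for 4 of 4. Of all genes tested, 17.6% were higher and 18.4% lower.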

Additional observations from a re-analysis of the deposited data

How the results depend on the processing

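The rises of Crb3, Pard6b, Llgl2 and Prkcz passed the edgeR or DESeq2 threshold under each of the 20 alternatives run on them. Their log2 fold changes were 3.37 to 3.97, 1.69 to 2.07, 0.89 to 1.21 and 0.63 to 0.86. Removal of the chromosome 8 median, counted among the 20, leaves fold changes on other chromosomes unchanged, so it is no check of these rises. Over 19 alternatives, 4 to 6 of the 10 genes rose, beside 1821 to 4648 of the 15208 to 41649 genes tested. The number of the 10 that fell was 0 in 18 of these alternatives, beside 2238 to 4778 of all genes over the 19. The other alternative, only libraries under 40% unmapped pairs, was chosen after seeing the data and keeps 1 knockout library. There Llgl1 was at -0.28. Of the genes that did not pass, Llgl1, Scrib and Pard6a changed sign under some alternatives. Dlg1 (-0.202 to -0.041) and Prkci (0.16 to 0.326) kept their sign under all of them. Llgl1 was at -0.056 with no filter, -0.19 with the unmapped share as a covariate, -0.14 with the GC trend removed and -0.28 with only libraries under 40% unmapped, and ranged from -0.14 to 0.12 when 1 replicate was left out. Scrib was at -0.001, -0.12, -0.10 and -0.20 under the same 4 settings and at -0.12 to 0.16 when 1 replicate was left out. Pard6a was at 0.021 with library totals, 0.029 with a CPM of at least 1 in 3 libraries, 0.12 with the unmapped share as a covariate, 0.014 with the share of pairs outside exons as one and 0.10 with only libraries under 40% unmapped, and from -0.15 to 0.037 when 1 replicate was left out, above 0 without wild-type replicate 1 or knockout replicate 3. Pard3 was at -0.009 with the chromosome 8 median removed. The cause of these changes was not tested.

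Over all genes, 2333 were higher with the unmapped share and 2238 lower with the share of pairs outside exons as a covariate. Leaving out 1 replicate gave 1821 to 4648 higher and 2257 to 4778 lower. Of the related genes, 5 fell with the share of pairs outside exons as a covariate, and 5 to 11 when 1 replicate was left out. The chromosome 8 median was 0.50 with library totals, 0.49 with no filter, 0.45 with a CPM of at least 1 in 3 libraries, 0.43 with the replicate block, 0.47 with the mitochondrial and 20 most abundant genes left out, 0.42 with the unmapped share or the share of pairs outside exons as a covariate or only libraries under 40% unmapped, 0.39 with the GC trend removed, and 0.42 to 0.46 when 1 replicate was left out. Library totals moved the median of all genes from 0.05 to 0.10 and no filter moved it to 0.26.

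With the replicate number as a block, 5 of the 10 genes rose and 0 fell, 3082 genes were higher and 3580 lower, and the paralog ratio differences were again 0.47, 1.07 and 1.88. The deviations of same-numbered libraries from their group means correlated at 0.053, -0.212 and -0.243 across genes for numbers 1, 2 and 3. Wild-type 2 with knockout 3 gave 0.235, and wild-type 3 with knockout 2 gave 0.253. Deviations within a group depend on each other, so these values cannot decide whether same-numbered libraries were paired. Not every library correlated best with its own number. Among the named related genes the block moved 3 across the threshold: Pard3b (adjusted p = 0.0524) and Dlg3 (adjusted p = 0.0707) did not pass, and Mpp5 (-0.40, adjusted p = 0.0332) did, as lower. It changed no other call of a named gene. Of the related genes named as called, Patj, Stk11, Tiam1, Lrrc1, Erbin, Pard3b and Dlg3 missed the threshold under 4, 5, 4, 3, 2, 10 and 12 of 19 alternatives. The 3 paralog ratios kept their direction under each of 9 alternatives. Wild-type counts of Crb3, 11 to 25 per library, limit the precision of its fold change.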
